A study of Mus musculus with 4 samples.

Results

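The genes described here are those of pericellular proteolysis in 4T1 cells: the plasminogen activators Plau and Plat, the urokinase receptor gene Plaur, the matrix metalloproteinase genes Mmp3, Mmp9, Mmp13 and Mmp14, and the metalloproteinase inhibitor genes Timp1 and Timp2. They were taken by gene symbol, and all 9 were found among the 24411 genes of the tables. 4T1 is an established mouse mammary carcinoma line. The series holds 4 RNA-seq libraries of cultured 4T1 cells, 2 of genotype control (control 1 and control 2) and 2 of genotype CD95ko (CD95ko 1 and CD95ko 2), with no treatment or time course. CD95 is the death receptor encoded by Fas, and the design asks which transcripts differ once it has been disrupted. Per the labels' protocols, blasticidin-selected 4T1 cells carrying a lentiviral Cas9 were transfected with a pair of guide RNAs for the deletion of exon 9, and clones were grown from sorted single cells. The protocols name the RNA sources as a control, the Cas9-expressing line and 2 clones, so each library labelled CD95ko is 1 clone, and at least the clones and the Cas9-expressing line share the Cas9 transgene. Which of the control libraries carries Cas9 is not given by the titles. By these protocols the libraries labelled CD95ko also differ from the controls by guide transfection and by growth from single cells. These cannot be told apart from the disruption of Fas.

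Plasminogen activators are serine proteases that cleave the zymogen plasminogen to plasmin, a broad protease that degrades fibrin and matrix proteins and can activate several pro-metalloproteinases. Urokinase, the product of Plau, acts at the cell surface bound to its receptor, and its activity is held in check by serpins. Matrix metalloproteinases are zinc proteases made as inactive precursors; Mmp14 is anchored in the membrane, while the products of Mmp3, Mmp9 and Mmp13 are secreted, and TIMPs bind and block the active enzymes. In mammary tumours this set of genes is studied for its part in invasion and matrix remodelling.

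The targeted gene, Fas, was 49.4 and 39.2 TPM (a level normalised for transcript length and for the total of the library) in the controls, 15.8 TPM in the library labelled CD95ko 1 and 49.5 TPM in the library labelled CD95ko 2. Its transcript was therefore not lower in the latter. One value per gene cannot show whether exon 9 is missing, so the libraries are named by their labels and all directions rest on those labels. Between 11193 and 12010 genes were above 0 per library, and TPM carries no read number, so depth is unknown. The labelled cell type was checked against 10 epithelial markers, all of them above 1 TPM in every library, with summed levels of 6668 and 6183 TPM in the controls against 10226 and 14681 TPM in those labelled CD95ko. Of 9 fibroblast markers 1 to 3 were above 0 per library, and their summed level was at most 4.52 TPM. Of 7 endothelial markers 1 was above 0, at 0.28 TPM in control 2.

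Ordered by their mean level in the controls, where TPM values can be compared between genes because they are per length, Timp2 was the highest of the 9 (191 ± 65.3 TPM, SD, n = 2). It was followed by Plaur (123 ± 55.9), Plau (113 ± 33.3), Timp1 (111 ± 15.6), Mmp14 (91.6 ± 54.5) and Mmp9 (41.3 ± 35.7). Neighbours in this order overlapped in the range of their values over both controls. Mmp3 (17.2 and 9.07 TPM), Plat (5.68 and 5.19 TPM) and Mmp13 (3.6 and 1.98 TPM) were weakly expressed in both controls. The order was another one in the library labelled CD95ko 2, where Mmp9 was first with 802 TPM, ahead of Plau with 459 TPM and Mmp14 with 345 TPM.

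**Figure D1:**
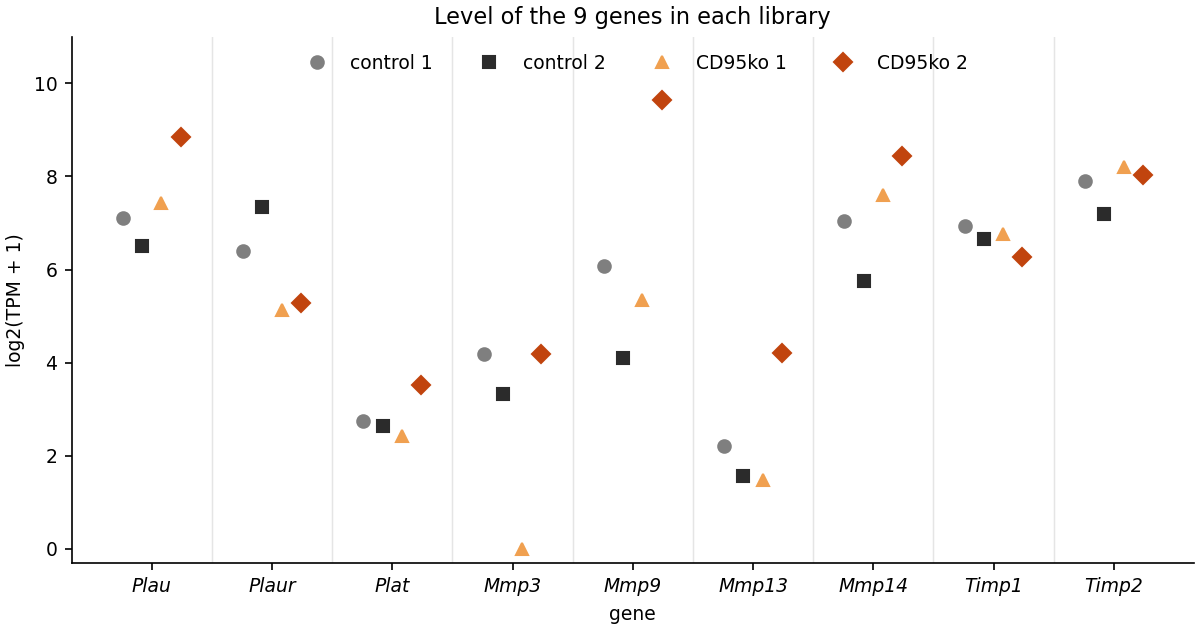
Level of the 9 genes, as log2(TPM + 1), in the control and CD95ko libraries, 1 point per library. Plaur was lower in both libraries labelled CD95ko than in either control, while Plau and Mmp14 were higher in both, and Mmp9 stood out in the library labelled CD95ko 2 at 802 TPM.

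Plau, which encodes urokinase (chr14:20836660-20843385, forward strand, GRCm38, GENCODE M21), was 137 TPM in control 1 and 89.9 TPM in control 2, against 172 TPM in the library labelled CD95ko 1 and 459 TPM in the library labelled CD95ko 2. The groups did not overlap, but control 1 and CD95ko 1 were closer to each other than the libraries labelled CD95ko were. The mean was 2.78-fold higher in the libraries labelled CD95ko (315 ± 203 against 113 ± 33.3 TPM, SD, n = 2). On the log2(TPM + 1) scale the difference was 1.33 ± 0.47 (SE), and it did not pass the threshold of 0.05 after adjustment over the 11167 tested genes, those with at least 1 TPM in at least 2 libraries, which included all 9 members (limma adjusted p = 0.246, unadjusted p = 0.0194). In bulk RNA a change in the share of expressing cells and a change in RNA per cell cannot be told apart. Without the library labelled CD95ko 1 the difference was 2.04 (adjusted p = 0.00208), and without CD95ko 2 it was 0.62 (adjusted p = 0.545), with the lone library assumed to vary as the controls did.

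Plat, the gene of tissue-type plasminogen activator (chr8:22757727-22782844), was 5.68, 5.19, 4.38 and 10.5 TPM in control 1, control 2, CD95ko 1 and CD95ko 2. The library labelled CD95ko 2 was the highest and CD95ko 1 the lowest, so the groups overlapped (log2 fold change 0.29 ± 0.60 SE, limma adjusted p = 0.863), and without CD95ko 2 the difference was -0.26. Plau exceeded Plat in every library, by 17.3-fold to 43.8-fold in TPM, and the smaller of the ratios in the libraries labelled CD95ko (39.2) lay above the larger of the controls (24.1).

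Plaur, whose product is the membrane receptor that holds urokinase at the cell surface, lay on the other side. The gene lies at chr7:24462484-24475968 on the forward strand (GRCm38, GENCODE M21). It was 83.1 TPM in control 1 and 162 TPM in control 2, against 33.8 TPM in the library labelled CD95ko 1 and 37.9 TPM in CD95ko 2. The libraries labelled CD95ko were close to each other and every one of the 4 CD95ko-control pairs differed by more than 2-fold. The control mean was 3.42-fold the CD95ko mean (123 ± 55.9 against 35.8 ± 2.88 TPM, SD, n = 2; a log2 fold change of -1.67 ± 0.40 SE, 95% interval -2.59 to -0.75). This was the smallest p-value among the 9 genes, but it did not pass over all genes (limma adjusted p = 0.147, unadjusted p = 0.00268). The difference was -1.59 without CD95ko 1, -1.75 without CD95ko 2, -2.15 without control 1 and -1.19 without control 2. With a lone library in a group, the spread came from the other group alone, so no p-values are given for these.

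Because Plau and Plaur lay on opposite sides, their ratio within a library, which does not depend on how libraries are scaled, separated the groups more widely than either gene. This follows from the placement of these genes and adds no evidence beyond their own values. The Plau to Plaur ratio was 1.65 in control 1 and 0.554 in control 2, against 5.07 in the library labelled CD95ko 1 and 12.1 in CD95ko 2. The lowest CD95ko ratio was 3.08-fold the highest control ratio. With 2 libraries against 2, an exact two-sided permutation test of such a value cannot give a p-value below 0.333.

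Among the 30 listed partners of the plasminogen system, 17 were tested. None passed over all genes (smallest limma adjusted p = 0.187), 2 were higher at an unadjusted p under 0.05 (as were 9.25% of all tested genes), and 0 were lower. Their median log2 fold change was 0.37, against 0.13 for all tested genes. Plasminogen itself (Plg) was listed at 0 in all 4 libraries. Of the inhibitor genes of this step, Serpinb2 was listed at 0 in all libraries but CD95ko 1 (1.65 TPM), and Serpine2 was 7.16 and 0.65 TPM in the controls and listed at 0 in both libraries labelled CD95ko. The partners at an unadjusted p under 0.05 were Sorl1, a receptor of the LDL receptor family (4.52 and 3.12 TPM in the controls against 20.6 and 13.0 TPM in those labelled CD95ko, over 2-fold in all pairs), and Serpinb6a, an intracellular serpin (354 and 492 against 796 and 650.3 TPM).

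Mmp14 encodes the membrane-anchored metalloproteinase MT1-MMP, which cleaves collagen at the cell surface and activates pro-Mmp2. Transcripts of the gene (chr14:54431612-54445364) stood at 130.1 and 53.0 TPM in the controls, against 194 TPM in the library labelled CD95ko 1 and 345 TPM in CD95ko 2. The groups did not overlap, and control 1 was nearer to CD95ko 1 than to control 2. The mean was 2.94-fold higher in the libraries labelled CD95ko (269 ± 107 against 91.6 ± 54.5 TPM, SD, n = 2; a log2 fold change of 1.62 ± 0.47 SE, limma adjusted p = 0.185, unadjusted p = 0.00729). Without CD95ko 1 the difference was 2.04, and without control 2 it was 0.98. Mmp2, the gene of its best known pro-enzyme substrate, was listed at 0 in all 4 libraries.

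Mmp9, the gene of gelatinase B (chr2:164940780-164955850), had the largest range of the 9 genes. It was 66.6 TPM in control 1 and 16.1 TPM in control 2, against 39.8 TPM in the library labelled CD95ko 1 and 802 TPM in CD95ko 2. The library labelled CD95ko 1 lay between the controls, and CD95ko 2 was 20.1-fold above CD95ko 1. Between the controls the difference was 4.14-fold. The group difference (log2 fold change 2.41 ± 1.17 SE, limma adjusted p = 0.377, unadjusted p = 0.0703) rested on 1 library. It was 4.56 without CD95ko 1, 0.26 without CD95ko 2 and 1.42 without control 2. Since leukocytes make Mmp9, 11 leukocyte markers were examined. The summed level of these markers stood at 57.8 and 46.2 TPM in the controls, 53.0 TPM in CD95ko 1 and 253 TPM in CD95ko 2, with 2 or 3 of the 11 above 0 in each library. The markers above 0 were Cd68 (44.6, 42.1, 17.8 and 146 TPM in control 1, control 2, CD95ko 1 and CD95ko 2), Cd14 (12.0, 4.13, 12.95 and 102 TPM) and Csf1r (1.22, 0, 22.2 and 5.07 TPM). The leukocyte-defining Ptprc, Itgam, Adgre1, Tyrobp, Fcer1g, Lyz2 and Cd3e were listed at 0 in all 4 libraries.

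Mmp3 and Mmp13 encode stromelysin 1 and collagenase 3 and lie in the cluster of metalloproteinase genes on chromosome 9 (GRCm38, GENCODE M21). Mmp3 occupies chr9:7445822-7455975 and Mmp13 chr9:7272514-7283331, both on the forward strand. Mmp3 was 17.2 TPM in control 1, 9.07 TPM in control 2, listed at 0 in the library labelled CD95ko 1 and 17.2 TPM in CD95ko 2. CD95ko 2 thus equalled the higher control within 0.1 TPM, and no fold is given against a library at 0. The limma difference was -1.67 ± 1.15 SE on the log2(TPM + 1) scale (adjusted p = 0.527). It was -3.26 with a pseudocount of 0.1, 0.42 without CD95ko 1 and -3.76 without CD95ko 2. Mmp13 stood at 3.6 and 1.98 TPM in the controls, 1.79 TPM in CD95ko 1 and 17.4 TPM in CD95ko 2, so the libraries labelled CD95ko bracketed the controls (log2 fold change 0.95 ± 0.88 SE, limma adjusted p = 0.644; -0.41 without CD95ko 2). Of the 10 metalloproteinase genes of this cluster, 7 were listed at 0 in all 4 libraries. The remaining one, Mmp10, was at most 1.99 TPM.

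The composition of the metalloproteinase transcripts differed between the libraries labelled CD95ko. The 4 genes summed to 218 and 80.2 TPM in the controls, 235 TPM in CD95ko 1 and 1181 TPM in CD95ko 2. Mmp14 made up 59.8% and 66.1% of that sum in the controls and 82.3% in CD95ko 1. In CD95ko 2 Mmp9 made up 67.9% and Mmp14 29.2%. Of the 19 other metalloproteinase genes on the list, 4 passed the filter on low values (Mmp11, Mmp15, Mmp23 and Mmp24) and 15 did not. Mmp15, another membrane-anchored enzyme, stood at 0.83 and 0.3 TPM in the controls, 6.92 TPM in CD95ko 1 and 61.0 TPM in CD95ko 2, over 2-fold higher in all pairs (log2 fold change 3.84 ± 0.91 SE, limma adjusted p = 0.144, unadjusted p = 0.00236). It passed the filter only through the libraries labelled CD95ko.

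Beside Plat, the inhibitor genes had the smallest group differences of the 9. Timp1 (chrX:20870166-20874735, GRCm38, GENCODE M21) was 122 TPM in control 1 and 99.7 TPM in control 2, against 108.1 TPM in the library labelled CD95ko 1 and 76.7 TPM in CD95ko 2, with overlapping groups (log2 fold change -0.27 ± 0.34 SE, 95% interval -1.04 to 0.50, limma adjusted p = 0.744). Timp2, which besides blocking metalloproteinases takes part in the activation of pro-Mmp2 by Mmp14, was 237 and 145 TPM in the controls against 292 and 259 TPM in those labelled CD95ko. The groups did not overlap, but the step from control 1 to CD95ko 2 was smaller than that between the controls (log2 fold change 0.57 ± 0.33 SE, 95% interval -0.19 to 1.32, limma adjusted p = 0.458). Both intervals include a 2-fold difference in one direction, so an unaltered level is not shown. Timp1 overlaps Syn1 on the opposite strand, and Timp2 (chr11:118301069-118355740) overlaps Cep295nl on the same strand, without shared exon bases in either case. Timp3 was listed at 0 in all libraries but CD95ko 2 (0.69 TPM), and Reck, a membrane-anchored metalloproteinase inhibitor, was 1.06, 0.87, 1.05 and 2.2 TPM in control 1, control 2, CD95ko 1 and CD95ko 2.

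Set against an inhibitor of the same library, the Mmp14 to Timp2 ratio was 0.549 and 0.366 in the controls, 0.664 in CD95ko 1 and 1.33 in CD95ko 2, so that Mmp14 transcripts outnumbered Timp2 transcripts only in the last of the 4 libraries. The Mmp9 to Timp1 ratio was 0.546 and 0.161 in the controls, 0.368 in CD95ko 1 and 10.5 in CD95ko 2. Summed over the 4 metalloproteinases and both inhibitors, the ratio was 0.606 and 0.328 in the controls, 0.589 in CD95ko 1 and 3.52 in CD95ko 2. On this measure CD95ko 1 lay between the controls and CD95ko 2 stood apart. Transcript ratios say nothing of the amounts of active enzyme.

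**Figure D2:**
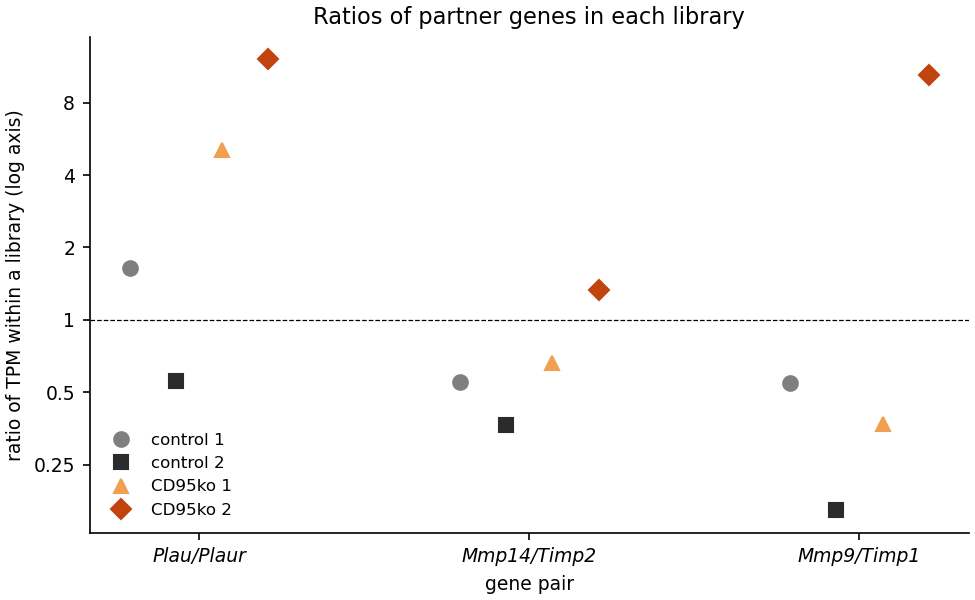
Ratio of the TPM values of partner genes within each library, on a log axis, 1 point per library and a dashed line at equal levels. The Plau to Plaur ratio was 5.07 and 12.1 in the libraries labelled CD95ko, above the 1.65 and 0.554 of the controls, whereas the Mmp9 to Timp1 ratio was high only in the library labelled CD95ko 2 (10.5) among the 4 libraries.

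Of the 17 other inhibitors and cofactors on the list, 11 were tested, 0 passed over all genes in limma and 1 was higher at an unadjusted p under 0.05, a share near the 9.25% of all tested genes. That gene was Thbs1, which encodes the matrix glycoprotein thrombospondin 1, at 42.5 and 15.9 TPM in the controls against 109.7 and 475 TPM in those labelled CD95ko (log2 fold change 3.08 ± 0.68 SE, limma adjusted p = 0.136). The list's median log2 fold change was 0.38. Lcn2, whose product binds Mmp9 protein, was named after its values were seen. It was highest in CD95ko 2 (2323 TPM), against 214 TPM in CD95ko 1 and 383 and 497 TPM in the controls. In CD95ko 1 Lcn2 lay below both controls, where Mmp9 lay between them. The groups overlapped for Lcn2 (log2 fold change 0.69, limma unadjusted p = 0.444).

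The wider set of surface and secreted proteases was counted in the same way. Of 34 ADAM, ADAMTS and related metalloproteinase genes 15 were tested, with a median log2 fold change of 0.35, and 0 passed over all genes in limma. At an unadjusted p under 0.05 1 was higher and 1 lower, shares near those of all tested genes (9.25% and 5.68%). Bmp1, the procollagen C-proteinase, was the higher one (141 and 114 TPM in the controls against 276 and 331 TPM in those labelled CD95ko, limma adjusted p = 0.147). Adamts1 was the lower one, by more than 2-fold in all pairs (32.7 and 44.0 against 12.1 and 4.65 TPM, limma adjusted p = 0.147). Of 28 pericellular serine proteases and their inhibitors 18 were tested, with a median of 0.72; 7 were higher and 0 lower at an unadjusted p under 0.05, where 9.25% and 5.68% of all tested genes were, and 0 passed over all genes (smallest limma adjusted p = 0.109). Without 2 genes that passed the filter only through the libraries labelled CD95ko, 5 were higher. The median of 0.72 includes these 2 genes, which lay above it (log2 fold changes 2.47 and 1.86) and could only come out higher. The smallest p-value was that of Prss22, a tryptase-like serine protease, at 31.0 and 58.4 TPM in the controls against 177 and 732 TPM in those labelled CD95ko. Those 2 genes were Tmprss6 and Tmprss4, membrane serine proteases, listed at 0 in both controls and at 1.98 and 9.31 TPM, and at 1.42 and 4.46 TPM, in the libraries labelled CD95ko. Prss8, the membrane-anchored prostasin, was 23.3 and 9.48 TPM in the controls against 31.7 and 57.0 TPM in those labelled CD95ko. Summed epithelial markers, given above, were also higher in both libraries labelled CD95ko, and their part in these differences was not tested. Of the 10 markers 7 lay above both controls in both of these libraries, as did 29.2% of all tested genes. The abundant keratins Krt7, Krt18, Krt8 and Krt19 were among the 7, and Cldn4 only narrowly so. Cldn7, Esrp1 and Spint2 overlapped between the groups.

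**Figure D3:**
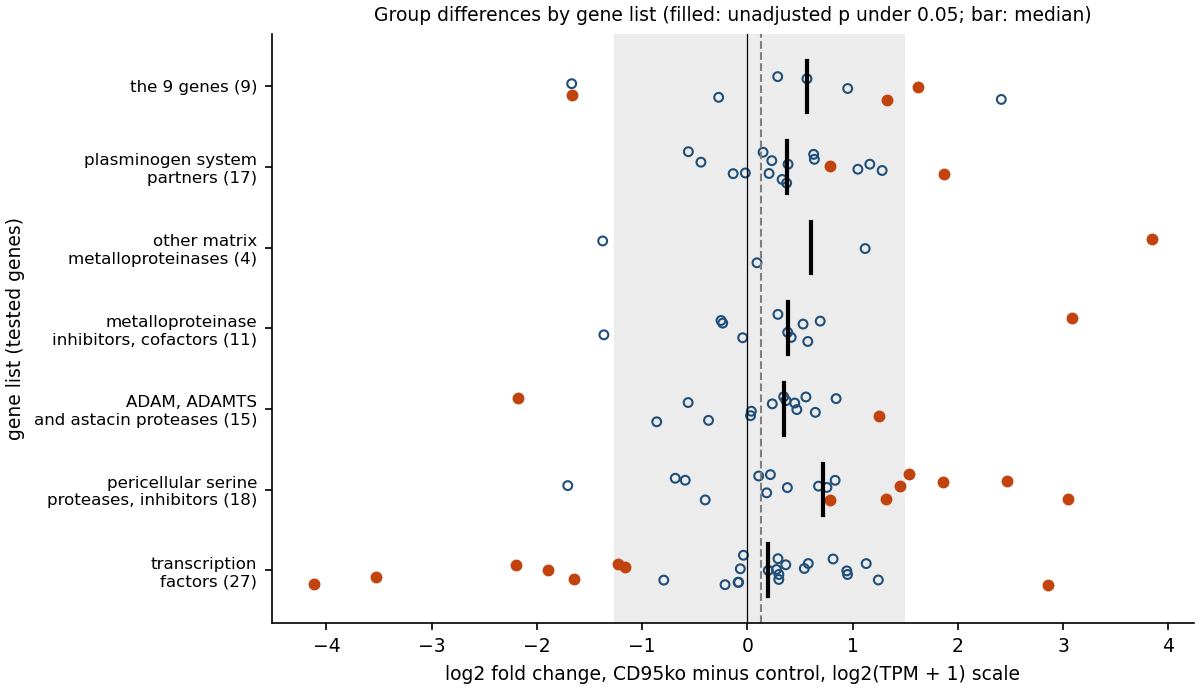
Log2 fold change on the log2(TPM + 1) scale of the tested genes of each list, 1 point per gene, filled where the unadjusted limma p was under 0.05, with a black bar at each list's median, a dashed line at the median of all tested genes (0.13) and a grey band from their 5th to their 95th percentile (-1.25 to 1.49). The 18 serine proteases and inhibitors had a median of 0.72, which includes 2 genes that passed the filter only through the libraries labelled CD95ko. The transcription factors held 7 filled points below 0 and 1 above.

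Plasminogen activator and metalloproteinase genes are classical targets of AP-1, the dimer of Fos and Jun family proteins, so the promoters were searched for its consensus site TGAGTCA, or TGACTCA on the other strand. Of the 9 genes, 6 had a promoter in the RefSeq table (GRCm38.p6, 250 bases before to 50 after the start), and Plau, Plat and Mmp9 had none there. The consensus was found once each in Plaur, Mmp3 and Mmp13, and not in Mmp14, Timp1 or Timp2. It was present in 5.2% of all 32851 promoters of that length. A match describes these letters and is not shown to be a bound site. The 30 bases around each match are given on the forward strand, 5′ to 3′, with the consensus in capitals. The windows are chr7:24462403-24462432 for Plaur, chr9:7445765-7445794 for Mmp3 and chr9:7272468-7272497 for Mmp13, and the consensus begins 69, 46 and 35 bases before the start of transcription.
Plaur: acccctggagcTGACTCActctttagcaaa
Mmp3: ggaagcaattaTGAGTCAgttttcgggtga
Mmp13: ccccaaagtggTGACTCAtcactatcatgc

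The 3 genes with the consensus had 3 different patterns, Plaur being low in both libraries labelled CD95ko, Mmp3 listed at 0 in CD95ko 1 alone of the 4 libraries, and Mmp13 highest in CD95ko 2. Of 27 transcription factors known to act at such promoters all were tested, 0 passed over all genes (smallest limma adjusted p = 0.0676), 7 were lower and 1 higher at an unadjusted p under 0.05 (5.68% and 9.25% of all tested genes), and the median log2 fold change was 0.20. Fosl1, the gene of the AP-1 subunit Fra-1, stood at 247 and 354 TPM in the controls, 40.1 TPM in CD95ko 1 and 6.07 TPM in CD95ko 2 (log2 fold change -4.12 ± 0.70 SE, limma adjusted p = 0.0676). Atf3, another AP-1 partner, was 235 and 376 TPM against 50.3 and 12.1 TPM. Jun, named after its values were seen, was 184 and 216 TPM against 34.2 and 116 TPM. Ets1, which is no AP-1 gene and was also named afterwards, was among the 7 lower genes too. It was 81.1 and 68.1 TPM against 8.74 and 41.3 TPM. Fos was the gene that was higher, at 8.77 and 7.06 TPM in the controls against 25.5 and 155 TPM in those labelled CD95ko. The other AP-1 genes on the list, named after their values were seen, were not at an unadjusted limma p under 0.05. Junb (829 and 888 against 800 and 1378 TPM) and Jund (664 and 805 against 728 and 655 TPM) overlapped between the groups. Fosb also overlapped (0.63 and 1.38 against 0.83 and 6.94 TPM). Fosl2 lay below both controls (76.6 and 56.5 against 32.4 and 43.5 TPM). Of the 5 NF-κB subunit genes on the list, Relb, Nfkb2 and Rela were lower at an unadjusted p under 0.05, with Relb at 122 and 118 against 29.5 and 21.6 TPM, Nfkb2 at 355 and 342 against 161 and 136 TPM, and Rela at 159 and 147 against 85.9 and 52.9 TPM. Nfkb1 (80.2 and 65.4 against 59.9 and 65.0 TPM, log2 fold change -0.21, limma adjusted p = 0.812) and Rel (0.47 and 3.59 against 1.85 and 2.59 TPM, log2 fold change 0.30, limma adjusted p = 0.885) were not. The part of any of these transcription factors in the differences of the protease and inhibitor genes was not tested.

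Counted over the 9 genes, 0 passed an adjusted p of 0.05 in limma, where 0.0537% of all 11167 tested genes did. At an unadjusted p under 0.05 there were 2 higher (Plau and Mmp14), where 9.25% of all tested genes were, and 1 lower (Plaur), where 5.68% were. More than 2-fold in all 4 pairs was reached by Plaur alone of the 9, in the lower direction that 1.96% of all tested genes took, while 3.53% were higher by this rule. The groups did not overlap for 3 genes above (Plau, Mmp14 and Timp2) and 1 below (Plaur), and 29.2% and 18.3% of all tested genes were so placed, so this count was near the background. The median log2 fold change of the 9 was 0.57, against 0.13 for all tested genes, and without CD95ko 2 it was -0.03. Without CD95ko 1, 4 of the 9 passed an adjusted p of 0.05, 3 higher (4.4% of all tested genes) and 1 lower (4.86%). Without CD95ko 2, 2 passed, both lower (1.16% of all tested genes).

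**Figure D4:**
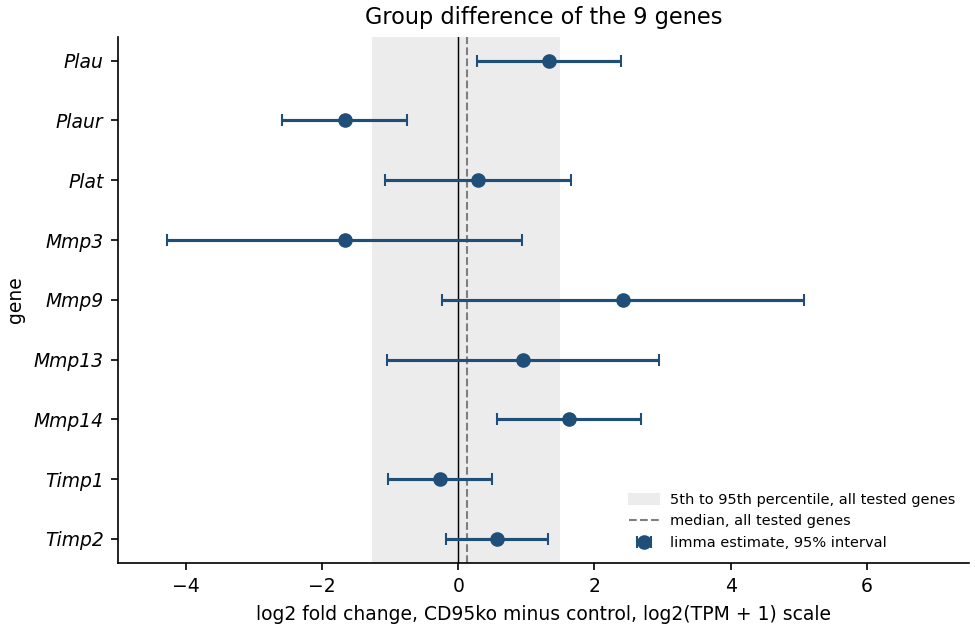
Log2 fold change of the 9 genes between the libraries labelled CD95ko and the controls on the log2(TPM + 1) scale, with the 95% interval of the limma fit, beside the 5th to 95th percentile (grey band) and the median (dashed line) of all tested genes. The intervals of Plau, Plaur and Mmp14 exclude 0, and that of Plaur runs from -2.59 to -0.75.

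Rescaling the libraries moved the median of all tested genes from 0.13 to 0.002 under quantile normalisation and to -0.018 under median-ratio scaling, a shift of over 0.1. Relative to that median, the log2 fold changes as reported were 1.20 for Plau, -1.80 for Plaur, 1.495 for Mmp14, 0.44 for Timp2 and -0.40 for Timp1, and all 9 genes kept their direction under both scalings. The unadjusted limma p of Plau rose above 0.05 under median-ratio scaling (0.058) and without the variance trend (0.060), which left 2 members, Plaur and Mmp14, under it. Over all tested genes, the share of higher genes among those at an unadjusted p under 0.05 was 62.0% as reported, 51.9% under quantile normalisation and 48.4% under median-ratio scaling.

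In the values as reported, Plau, Plat, Mmp3, Mmp9, Mmp13 and Timp1 differed more between the libraries labelled CD95ko than between the controls. Plaur, Mmp14 and Timp2 differed more between the controls. Levels differed by more than 2-fold between the 2 libraries labelled CD95ko for 5 of the 9 genes (Plau, Plat, Mmp3, Mmp9 and Mmp13), each higher in CD95ko 2, where 23.3% of all tested genes did so in either direction. Between the controls 2 of the 9 did (Mmp9 and Mmp14), where 14.4% of all tested genes did. On the log2(TPM + 1) scale, CD95ko 2 exceeded CD95ko 1 by 4.30 for Mmp9, 4.18 for Mmp3, 2.72 for Mmp13 and 1.41 for Plau. Plaur (0.16) and Timp2 (-0.17) differed least between these libraries. Control 2 was below control 1 for 8 of the 9 genes, Plaur being above (0.96), and the median difference over all tested genes was also negative (-0.35). Under quantile and median-ratio scaling the control difference was -0.99 and -0.89 for Mmp14, and 1.10 and 1.35 for Plaur. Plaur thus came over 2-fold between the controls and Mmp14 fell under it. The sign of the control difference changed for Plat under both scalings, and for Timp1 under median-ratio scaling.

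**Figure D5:**
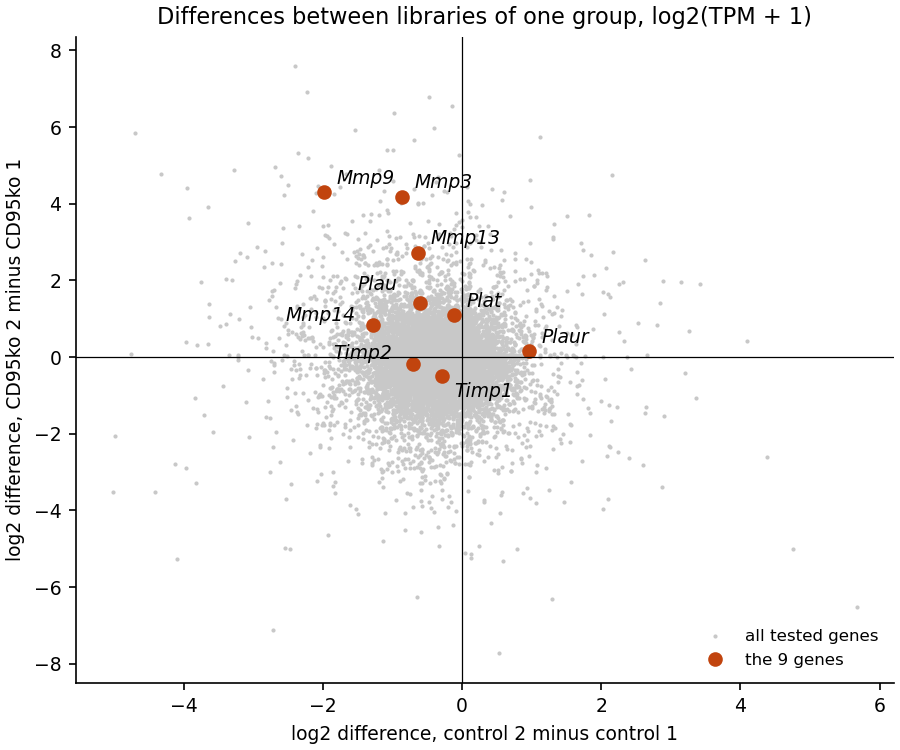
Difference in log2(TPM + 1) between the controls (horizontal axis) and between the libraries labelled CD95ko (vertical axis) for all tested genes in grey and the 9 genes in colour, without a test. Mmp9 (4.30), Mmp3 (4.18) and Mmp13 (2.72) lie high on the vertical axis, and Plaur lies near 0 on it (0.16).

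The tested genes whose pattern was nearest to that of a member were listed by the root mean square distance of centred log2(TPM + 1) values over the 4 libraries, a description that many genes can meet by chance with so few libraries. For Plau they were Maged1 (0.038), Aldh2 (0.044) and Lin37 (0.054). Plaur was nearest to Grwd1 (0.073), Il23a (0.12) and Cep126 (0.12). For Mmp14 they were Rin2 (0.057), Iqcb1 (0.064) and Smarcc2 (0.071), and Rab19 (0.15) and 4930483K19Rik (0.15) were among those of Mmp13. Mmp3 was nearest to Slpi (0.098), a secreted serine protease inhibitor that stood at 117 and 75.6 TPM in the controls, 6.22 TPM in CD95ko 1 and 117 TPM in CD95ko 2. Pitx1 (0.12) and Hist1h2ac (0.17) followed, both also listed at 0 in CD95ko 1. No gene was as near to Mmp9, the closest being Postn and Dhrs3 (0.44 each) and Gstt1 (0.45). For Plat they were Osbpl3 (0.026), Egln2 (0.037) and Gm15867 (0.047), and for Timp2 Srrm2 (0.018), Ppp1r35 (0.022) and 6030458C11Rik (0.022). The range of Timp1 over the libraries was under 1 on the log2 scale, and no genes were listed for it.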

How the data were processed

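Poly(A)-selected RNA of 4 4T1 cultures was sequenced after template-switching reverse transcription and PCR, per the labels' protocols, and no molecular identifiers are mentioned there. The deposited tables give 1 TPM value per gene symbol and library, per the file headers, and STAR 2.6.0, RSEM 1.3.0 and genome build mm10 are listed in the submitters' processing notes. The annotation is not given in the sources used here, and TPM does not carry depth, so intervals for counting error were not possible.

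Genes with at least 1 TPM in at least 2 libraries (11167, all 9 members among them) were transformed to log2(TPM + 1), a scale on which changes of weakly expressed genes come out too small. The titles gave the groups, and limma 3.58.1 (R 4.3.3) was used for the two-sided test, with a variance trend in eBayes, Benjamini-Hochberg adjustment over all tested genes and no covariate. The p-values measure the spread between these libraries, which are lines and clones and not repeat cultures. On simulated data for this comparison with 11167 genes, 58.5% of 200 genes with a log2 change of 2 were recovered, with 14 false calls. With a change of 4, 99% of 200 were recovered, with 25 false calls. Whether these shares hold for the libraries themselves was not tested. In the libraries, 6 of the 11167 tested genes passed. Fosl1 (log2 fold change -4.12) and Atf3 (-3.53) did not (limma adjusted p = 0.0676 for each). None of 20 housekeeping genes was at 0 in any library.

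The members, the gene lists and the tests were chosen with earlier results of these data known. All members were named; from each list, up to 6 genes over 2-fold in all pairs or at an unadjusted p under 0.05, of which the text gives part, and Serpinb2, Serpine2, Timp3, Mmp2 and Reck. For each member with a range over 1 (log2), the 3 nearest genes were named. A few genes that these rules take in are not reported here. Lists were described by counts, without a set test. Alternatives were a pseudocount of 0.1, no filter, a filter on a mean of 5 TPM, quantile and median-ratio scaling, eBayes without trend or robust, the replicate block and leaving out each library.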

Additional observations from a re-analysis of the deposited data

How the results depend on the processing

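For the 9 genes, all 72 values under settings that used all 4 libraries kept their direction and stayed short of the adjusted threshold. Of the 36 values with a library left out, 3 reversed: Plat (range -0.26 to 0.83, reversed without CD95ko 2), Mmp13 (-0.41 to 2.32, without CD95ko 2) and Mmp3 (-3.76 to 0.42, without CD95ko 1). Another 6 came past the threshold, all without a CD95ko library, where the lone library is assumed to vary as the controls do. The number of members past the threshold, 0 as reported (3 at an unadjusted p under 0.05), ranged from 0 to 4 with a library left out, that at an unadjusted p under 0.05 from 1 to 5 (2 to 4 under settings that used all 4 libraries), and that over 2-fold in all pairs from 1 to 5.

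Over all tested genes, the 6 calls became 0 with a pseudocount of 0.1, without the filter, under quantile normalisation, under median-ratio scaling and without the trend, 55 with the filter on mean TPM, 52 with robust eBayes, and 0 to 1034 with a library left out; unadjusted calls then ranged from 469 to 2713, and genes over 2-fold in all pairs from 1000 to 2405. The causes were not tested, except that fewer pairs can only raise the last count. The replicate numbers name different lines or clones and do not pair the libraries (deviations of same-numbered libraries correlated at -0.081 across genes); with the replicate block 2 genes passed, 1 of them among the 6, and 0 members.

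With the filter on mean TPM, the median log2 fold change of the other metalloproteinases was 2.48. That median rested on Mmp11 (1.12) and Mmp15 (3.84) alone, the latter at 0.83 and 0.3 TPM in the controls. With the same filter the median of the transcription factors was -0.037. With a library left out, medians ranged from -0.027 to 0.92 for the 9 genes, from -0.0029 to 0.51 for the ADAM and ADAMTS list and from -0.10 to 0.25 for the transcription factors, and those of the other 4 lists stayed above 0. The median of all genes was -0.018 under median-ratio scaling and ranged from -0.057 to 0.31 with a library left out. Between the controls, the log2 difference of Plat was 0.40 under quantile normalisation and 0.23 under median-ratio scaling, and that of Timp1 0.10 under the latter. Depth is unknown, so values listed at 0 cannot be set against a limit of detection.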
